A study of Oryza sativa with 80 samples.

Results

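The 200 rice genes described here are those whose transcripts stood highest at the base of the unstressed, fully elongated leaf, relative to its tip. They were chosen from the raw counts of unstressed leaves alone. In each of the 4 unstressed leaf pools the CPM (a gene's count over its library's total count, scaled up by 1 fixed factor) of segment 2 were divided by those of segment 6, with 0.5 CPM added to both. Genes with a mean of at least 2 CPM in segment 2 were ranked by the smallest of their 4 log2 ratios, and the first 200 were kept, out of 15628 genes that met the CPM minimum and 42189 genes in the table. The rule therefore asked for a base excess in every unstressed pool.

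The study grew rice (Oryza sativa) seedlings at 2 soil water contents, took the third leaf when it had stopped elongating, and sequenced poly(A) RNA from the middle 5 of 7 equal lengths of the blade, numbered 2 at the base to 6 at the tip. D40 leaves grew in drought at 1.5 g water per g dry soil, were 12 days old, and were taken after 30 min of heat shock at 40 °C. W40 leaves were well watered at 3 g per g, were 10 days old, and had the same heat shock. D30 leaves had the same drought and age as D40 and were taken at 30 °C, and W30 leaves, the unstressed group, were well watered, 10 days old and taken at 30 °C. Each treatment had 4 pools, and a pool held matched segments of 3 leaves, so that 80 libraries came from 16 pools. Drought and leaf age changed together in this design and cannot be told apart. The outermost base segment was not sequenced, so "base" means the second seventh of the blade.

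In grasses the leaf blade is pushed upward by dividing and elongating cells at its foot, so a blade carries an age gradient, with the oldest cells at the tip and the youngest next to the sheath. During growth the base builds walls and organelles while the tip already photosynthesizes, and a fully expanded blade no longer elongates but still keeps older tissue at the tip than at the base. Heat shock and drought both change the expression of many leaf genes, which raises the question of whether the positional order of transcripts survives them. The deposited tables give locus IDs only, and no table used here annotates them, so the genes are described by their IDs, levels and behaviour, without names or roles.

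Library totals ran from 53398019 to 128636996 counts. The labels give 2 batches: D40, D30 and W30 had 2 pools in each (pools 1 and 2 in batch 1, pools 3 and 4 in batch 2), while W40 had 1 pool in batch 1 and 3 in batch 2. One library went against its neighbour along the blade for these genes. In D40 pool 4, 146 of the 200 were higher in segment 6 than in segment 5, against 39 to 69 in the other 3 D40 pools and 24 to 80 in the 12 pools of the other treatments. Over all 15628 eligible genes that pool was unremarkable, with 55.2% higher in segment 6 than in segment 5, against a range of 37.6% to 72.2% over the other pools. Shares of members called in tests that moved with this pool are given with and without it. Counts within batch 2, from single pools and from group means include it. Where a pool was left out, the share of all genes called in that fit is not given. Such shares of members therefore do not separate a change special to them from one over all genes. Bulk RNA cannot tell fewer cells of a type from less RNA per cell, and this holds for every level below.

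In W30, where the genes were chosen, the smallest of the 4 log2 ratios ran from 4.73 for LOC_Os05g02070 to 0.80 for LOC_Os07g12900 and LOC_Os03g21040, the last genes inside. The first genes outside, LOC_Os07g41280 and LOC_Os06g49040, had 0.79. The excess over the tip was not a step at one place in the blade. The median gene kept 63.1% of its W30 segment 2 mean in segment 3, 45.2% in segment 4, 36.8% in segment 5 and 26.5% in segment 6. For 178 of the 200 the W30 mean fell at every step from segment 2 to segment 6, which held for 7.55% of the 23888 genes tested. The steepest first steps were those of LOC_Os06g16640, which kept 6.58% in segment 3, LOC_Os11g06980, which kept 20.8%, and LOC_Os12g29220, which kept 25.4%. Others held it for a segment longer, as LOC_Os07g08970 did with 97.7%, LOC_Os01g64020 with 96.6% and LOC_Os04g11400 with 96.0%. These are descriptions of the libraries that chose the genes, and no test is attached.

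The members were mostly of moderate level. By the deposited FPKM values, which are per length and batch-corrected by the authors, the W30 segment 2 mean had a median of 3.99 FPKM over the members, from 0.232 to 1530 FPKM, against a median of 4.73 FPKM over all eligible genes. The highest was LOC_Os01g74300, with segment 2 means of 719 ± 199 FPKM in D40, 1100 ± 18.6 in W40, 713 ± 311 in D30 and 1529 ± 449 in W30 (SD, n = 4 each). LOC_Os05g02070, first in the ranking, came second in level, with 568 ± 84.3 FPKM in D40, 347 ± 162 in W40, 524 ± 168 in D30 and 440 ± 176 in W30. Added together, the 200 genes took 0.54 ± 0.0564% of all counts in segment 2 of D40, 0.572 ± 0.0147% of W40, 0.561 ± 0.141% of D30 and 0.69 ± 0.0743% of W30. In segment 6 they took 0.232 ± 0.0582% in D40, 0.249 ± 0.00863% in W40, 0.235 ± 0.03% in D30 and 0.226 ± 0.0371% in W30. The base share was highest in W30, the group that chose the genes, and the tip means lay between 0.226% and 0.249%.

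**Figure D1:**
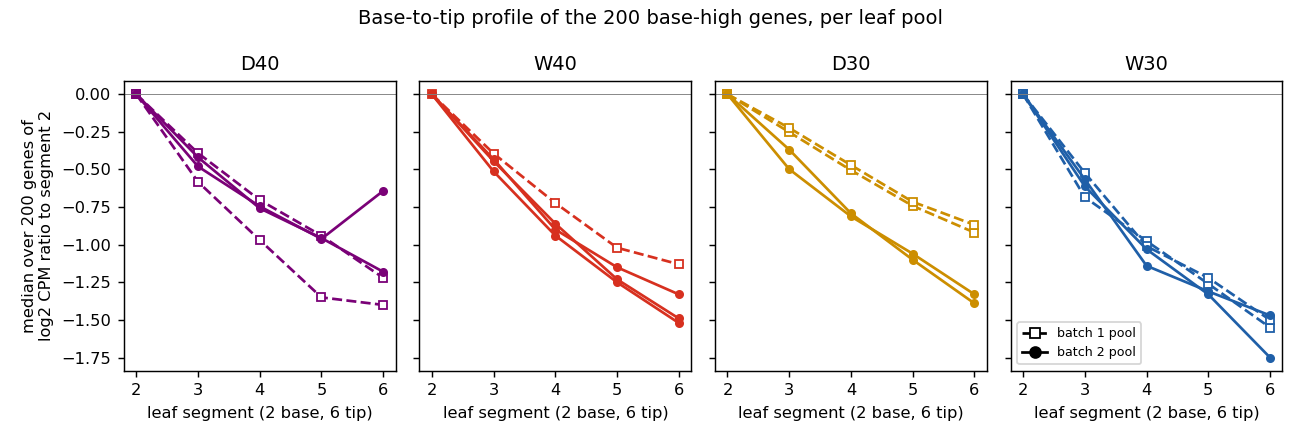
Median over the 200 genes of the log2 ratio of each segment's CPM to that of segment 2, in every leaf pool (y axis), against leaf segment from base to tip (x axis), for D40, W40, D30 and W30. Open squares with dashed lines are batch 1 pools and filled circles are batch 2 pools. The medians fall along the blade in every pool, except between segments 5 and 6 of D40 pool 4, which ends at -0.64, while the other pools end between -0.87 and -1.75.

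The base-to-tip difference was then tested in the 3 treatments the rule had not used. Most members kept it: 175 of 200 were higher in segment 2 than in segment 6 in D40, 188 in W40 and 173 in D30 (edgeR quasi-likelihood test, leaf pool as block, Benjamini-Hochberg adjusted p under 0.05 over all genes tested). The share of all tested genes called higher at the base was 10.6% in D40, 16.9% in W40 and 8.38% in D30. The median log2 difference of the members was 1.54 in D40, 2.03 in W40 and 1.41 in D30, against 2.07 in W30, where 200 of 200 were called (background 14.1%) because the rule had chosen them for it. Over all tested genes the median was within 0.03 of 0 in each treatment. Among the members 155 were called higher in all 3 treatments, 31 in 2 of them, 9 in 1 and 5 in none. The matching joint shares of all genes are not given. In D40 and D30, 0 members were called lower at the base (background 13.8% and 10.2%). DESeq2 also called 0, and at an unadjusted edgeR p under 0.05 there were 0 in D40 and 1 in D30. In W40, 2 were called lower (background 18.2%), or 2.5% of members without W40 pool 1.

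The same order could be read from single pools without a model. Segment 2 exceeded segment 6 in all 4 pools for 166 members in D40, 176 in W40 and 173 in D30, against 18.2%, 12.6% and 13.9% of all tested genes. The ranges of the 4 base and the 4 tip libraries did not overlap for 81 members in D40, 128 in W40 and 109 in D30 (3.13%, 4.04% and 3.65% of all tested genes). The D40 count was the lowest of these, and the median coefficient of variation between pools in segment 2 was 54.2% in D40, 33.7% in W40, 41.7% in D30 and 39.6% in W30. Segment 2 had the highest mean of the 5 segments for 193 members in D40, 184 in W40 and 182 in D30, and the share of all genes is not given. In W30, the group that chose them, 146 did not overlap (2.91%). The mean fell at every step from segment 2 to segment 6 for 104 members in D40, 139 in W40 and 143 in D30, against 6.74%, 4.86% and 7.18% of all tested genes. These D40 counts from pools and means include pool 4, where 146 members were higher in segment 6 than in segment 5. They were not made without that pool. Within batches the counts called higher were 183 in batch 1 and 117 in batch 2 for D40 (13.7% and 6.43% of all genes), 126 and 185 for W40 (4.49% and 17.8%), and 150 and 155 for D30 (7.76% and 7.31%). Without D40 pool 4, 90.5% of members were called higher in D40, against 87.5% with it.

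**Figure D2:**
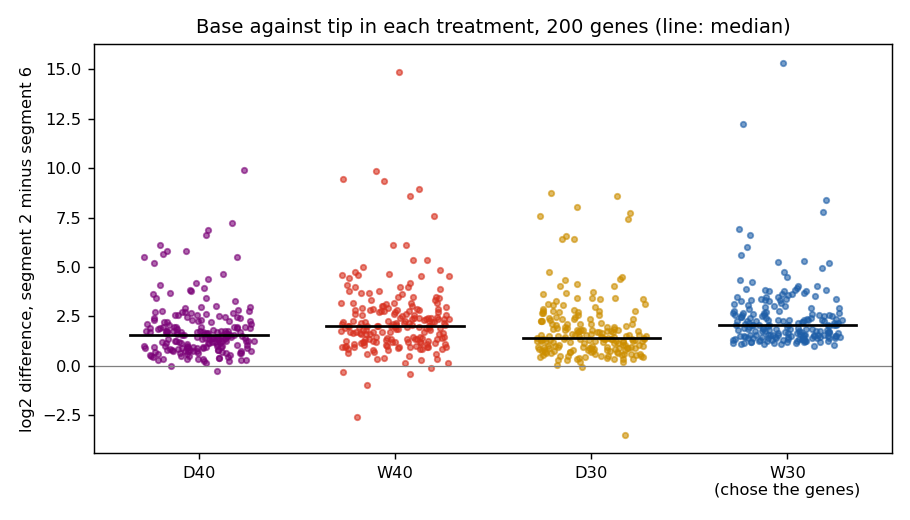
Fitted log2 difference between segment 2 and segment 6 (y axis) for each of the 200 genes (points) in D40, W40, D30 and W30 (x axis, points spread sideways at random), with a black line at the median. Most points lie above 0 in all 4 treatments, with medians of 1.54, 2.03, 1.41 and 2.07, and the lowest points are LOC_Os05g11210 in D30, near 0 CPM at both ends, and LOC_Os06g48200 in W40.

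LOC_Os05g02070 kept a steep gradient in all 4 treatments. Its CPM in pools 1 to 4 was 357, 490, 537 and 591 in segment 2 of D40, 470, 276, 205 and 275 in W40, 287, 310, 664 and 655 in D30, and 527, 206, 448 and 360 in W30. In segment 6 it was 9.53, 15.7, 55.1 and 113 in D40, 13.4, 8.995, 5.52 and 5.53 in W40, 9.40, 16.2, 48.5 and 45.4 in D30, and 14.9, 7.26, 8.76 and 11.2 in W30. Base and tip libraries did not overlap in any treatment. The fitted log2 difference was 3.65 ± 0.31 in D40, 5.34 ± 0.33 in W40 and 4.13 ± 0.31 in D30 (SE, edgeR adjusted p = 3.42e-13, 1.47e-18 and 3.64e-15). The difference was smaller in D40 than in W40 by 1.69 ± 0.40 on the log2 scale (adjusted p = 0.00495), a call that ended when D40 pool 4 was left out. Over the 16 omissions of 1 pool the difference in gradient ran from -2.07 to -0.98, with adjusted p up to 0.104.

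A neighbouring pair on chromosome 4, LOC_Os04g10924 and LOC_Os04g10940, was confined largely to the lower blade in all 4 treatments. LOC_Os04g10940 averaged 43.1 ± 13.3 CPM in segment 2 of D40, 10.9 ± 8.80 in W40, 43.6 ± 6.60 in D30 and 16.1 ± 7.93 in W30 (SD, n = 4 each). By segment 6 the means were 0.35 ± 0.515 CPM in D40, 0.0158 ± 0.0316 in W40, 0.166 ± 0.143 in D30 and 0.0755 ± 0.0577 in W30. Both genes had higher segment 2 levels in every D40 pool than in every W40 pool, with fitted log2 differences of 2.04 ± 0.43 for LOC_Os04g10940 (edgeR adjusted p = 0.0122) and 1.72 ± 0.39 for LOC_Os04g10924 (adjusted p = 0.0162). The first call ended without W40 pool 4, with an adjusted p of 0.0504 there in the same edgeR test, and the second ended under 5 of the 16 omissions of 1 pool. Without stated handling of shared reads, the split of counts between 2 such neighbours is uncertain. LOC_Os03g22620, second in the ranking, was also low at the W40 tip: 28.5, 44.9, 44.0 and 26.5 CPM in segment 2 stood against 0.182, 1.03, 1.02 and 0.221 CPM in segment 6. In D40 it had 17.3, 38.2, 41.1 and 20.5 CPM in segment 2 and 0.368, 1.05, 1.93 and 5.2 CPM in segment 6. The base libraries of the heat-shocked groups overlapped, and its gradient was smaller in D40 than in W40 by 2.43 ± 0.48 on the log2 scale (edgeR adjusted p = 0.000889).

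In the fit to all pools, heat-shocked leaves from drought had a flatter gradient than well-watered ones for a part of the members. The base-to-tip difference was smaller in D40 than in W40 for 36 of 200 and larger for 5 (edgeR, background 3.60% and 3.45% of all genes), and the median member's difference was 0.47 lower on the log2 scale, against 0.03 lower over all genes. The members were chosen in well-watered leaves, although not in W40. Of the 36 genes, 34 were still called higher at the base in D40. At the tip 14 of them were called higher in D40 than in W40, at the base 5 were called lower, 16 were tested and not called in either segment, and LOC_Os11g10850 was not called at the base and not tested at the tip.

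This result differed by batch and by pool. The fit had no term for a gradient that differs by batch. W40 had 1 pool in batch 1 and 3 in batch 2, and D40 had 2 in each, so the treatments weigh the batches unequally in it. Within batch 1, which held 1 W40 pool, 15 members had a larger and 5 a smaller difference in D40, with a median of 0.38 (0.893% and 0.376% of all genes). Within batch 2 the counts were 6 and 81, with a median of -0.94 (7.06% and 7.94% of all genes). Leaving out D40 pool 4 gave 8.0% of members with a smaller difference in D40, against 18% with all pools. Leaving out W40 pool 3 gave 11%, W40 pool 4 gave 10.0%, and W40 pool 1, the only W40 pool of batch 1, gave 31.0%. The share with a larger difference, 2.5%, was 4.5% without W40 pool 1, 1.0% without W40 pool 4, and 1.5% without W40 pool 3, D40 pool 1 or D40 pool 3. Under all 16 omissions of 1 pool, 11 of the 36 calls of a smaller difference held and 2 of the 5 of a larger one.

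Among the 11 were LOC_Os03g22620 and its neighbour on chromosome 3, LOC_Os03g22634. In segment 2 it had 30.7, 34.0, 134 and 30.6 CPM in D40 and 47.5, 80.2, 41.3 and 107 CPM in W40. In segment 6 it had 8.95, 14.6, 21.4 and 41.1 CPM in D40 and 3.15, 4.31, 5.14 and 4.01 CPM in W40. The tip libraries of the 2 treatments did not overlap and the base libraries did. The gradient was smaller in D40 by 2.96 ± 0.40 on the log2 scale (edgeR adjusted p = 3.32e-06). LOC_Os08g04500 was another of the 11, at -1.63 ± 0.32 (adjusted p = 0.000846), and neither end alone passed the test against W40. Segment 2 had 35.1, 21.3, 18.7 and 15.2 CPM in D40 and 106, 214, 146 and 224 CPM in W40, with no overlap (log2 -2.13 ± 0.70, edgeR adjusted p = 0.0697), and segment 6 had 8.68, 8.22, 20.4 and 17.7 CPM in D40 and 11.6, 37.7, 58.3 and 55.3 CPM in W40. In D30 that gene had 23.7 and 23.3 CPM in batch 1 and 451 and 401 CPM in batch 2, so its D30 mean describes neither batch.

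LOC_Os12g29220 showed a flatter gradient at a higher level. It had 6.77, 20.8, 172 and 161 CPM in segment 2 of D40, 6.05, 26.4, 18.6 and 27.5 in W40, 13.9, 15.4, 103 and 141 in D30, and 11.9, 9.78, 9.16 and 8.60 in W30. In segment 6 it had 0.452, 3.72, 29.4 and 54.8 CPM in D40, against 0, 1.35, 1.74 and 1.85 CPM in W40. Both drought groups split by batch, with both batch 2 pools far above both batch 1 pools at the base, while the W30 pools lay close together. At the tip the gene was higher in D40 than in W40 by 4.77 ± 0.65 on the log2 scale (edgeR adjusted p = 0.00117), a call that held under all 16 omissions.

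**Figure D3:**
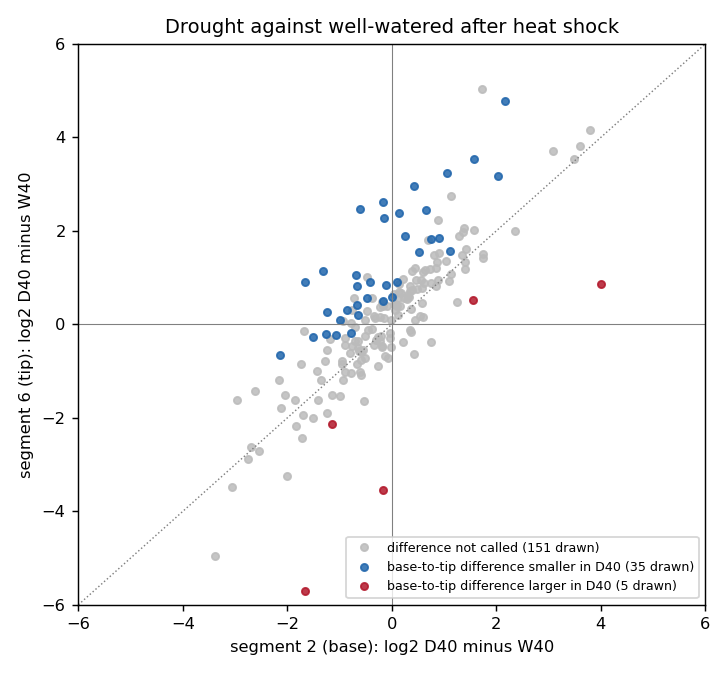
Fitted log2 difference between D40 and W40 in segment 2 (x axis) and in segment 6 (y axis) for the 191 members tested at both ends. Blue points are members whose base-to-tip difference was called smaller in D40 than in W40 (35 of the 36 are drawn), red points the 5 called larger, and the dotted line marks equal change at both ends. The blue points lie above the line, some with a higher tip and some with a lower base in D40.

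Few members were called for a change of gradient with heat shock in drought. In simulated counts without pool or batch effects, this comparison recovered 72% of 2-fold and 28% of 1.5-fold changes. Few calls therefore need not mean few changes. The base-to-tip difference was larger in D40 than in D30 for 2 members and smaller for 1 (edgeR, background 0.105% and 0.0837% of all genes), with a median of -0.02. The batches differed: within batch 1 the counts were 23 and 1 with a median of 0.41 (1.7% and 1.23% of all genes), and within batch 2 they were 0 and 2 with a median of -0.35 (0.256% and 0.0773%). At an unadjusted edgeR p under 0.05 batch 2 gave 4 larger and 42 smaller. The share of all genes at that threshold is not given, so nothing special to the members is read from these counts. The share with a larger difference, 1.0%, was 3.5% without D40 pool 4 and 0.5% without any one of D40 pool 2, W40 pools 2 and 3, D30 pools 3 and 4, and W30 pools 1 and 4. LOC_Os03g60850 had 71.3, 99.9, 46.2 and 28.9 CPM in segment 2 of D40 and 19.1, 21.2, 22.8 and 23.4 CPM in D30. Its tip had 23.4, 33.6, 9.65 and 12.4 CPM in D40 and 21.9, 23.7, 14.5 and 13.8 CPM in D30. Heat-shocked drought leaves were thus higher at the base in every pool and overlapped at the tip, and the gradient was larger in D40 by 1.31 ± 0.24 on the log2 scale (adjusted p = 0.0034). The other gene called larger, LOC_Os05g11210, was close to nothing: 0.451, 0.682, 0 and 0 CPM at the base in D40 against 0 in all 4 D30 base libraries, and 7 of the 16 omissions ended its call. Set against 3 counts over the group, the D40 base was at least 30.9-fold higher than the D30 base. In W30 the same gene had 16.8, 6.68, 1.90 and 2.72 CPM.

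The gene called smaller, LOC_Os04g05010, was called higher in D40 than in D30 at both ends of the blade. In segment 2 it had 78.1, 164, 740 and 843 CPM in D40, 289, 660, 618 and 727 in W40, 27.4, 19.4, 67.6 and 89.1 in D30, and 139, 152, 203 and 150 in W30. In segment 6 it had 59.1, 161, 547 and 640 CPM in D40, 92.6, 509, 559 and 495 in W40, 6.17, 7.41, 23.7 and 19.3 in D30, and 39.1, 28.7, 27.0 and 29.7 in W30. At both ends the D40 pools of batch 2 lay far above those of batch 1, and at the base D40 pool 1 was below every W30 pool. W40 pool 1 was the lowest W40 pool at both ends. D40 exceeded D30 by 3.23 ± 0.41 at the base (edgeR adjusted p = 0.000163) and by 4.75 ± 0.57 at the tip (adjusted p = 4.1e-05), both on the log2 scale. Its gradient was smaller in D40 than in D30 by 1.52 ± 0.24 (adjusted p = 0.000364), and all 3 calls held under every omission of 1 pool. In D40 the base-to-tip difference itself was 0.26 ± 0.16 and missed the threshold (adjusted p = 0.258), with base and tip libraries overlapping.

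The 2 members called lower at the base in W40 differed in how firm the call was. LOC_Os06g48200 had 0.927, 0.793, 0.366 and 0.841 CPM in segment 2 of W40 and 2.67, 8.47, 2.24 and 6.26 CPM in segment 6, with every tip library above every base library. The log2 difference was -2.57 ± 0.42 (edgeR adjusted p = 3.13e-06) and the call held under all omissions. In D40 the same gene had 10.6, 14.4, 10.1 and 12.1 CPM at the base and 4.55, 8.61, 4.15 and 11.4 CPM at the tip, and the gradient was larger in D40 than in W40 by 3.36 ± 0.56 (adjusted p = 0.000116). Its batches lay far apart, with segment 2 values of 1.64 and 0.665 CPM in batch 1 and 41.3 and 45.2 CPM in batch 2 of D30, and 8.64 and 6.19 against 0.51 and 1.69 CPM in W30.

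LOC_Os02g03710 had 59.5, 63.1, 81.6 and 99.1 CPM in segment 2 of W40 and 34.8, 210, 224 and 326 CPM in segment 6. The 3 batch 2 pools rose toward the tip and the batch 1 pool fell. The log2 difference was -0.98 ± 0.26 (edgeR adjusted p = 0.00239), and the call ended without W40 pool 2 or W40 pool 4, with values between -1.5 and -0.72 over the omissions. Its mean was nearly level along the blade in D40, at 28.8 ± 15.0 CPM in segment 2 and 27.6 ± 11.5 CPM in segment 6. LOC_Os05g43040 and LOC_Os10g36580 had the same arrangement of W40 pools. LOC_Os05g43040 had 38.0, 65.2, 77.6 and 92.5 CPM at the base and 21.0, 128, 148 and 181 CPM at the tip of W40, and LOC_Os10g36580 had 7.47, 8.34, 7.82 and 12.5 CPM at the base and 4.33, 16.8, 16.4 and 15.2 CPM at the tip. Their W40 differences of -0.43 ± 0.21 and -0.29 ± 0.24 missed the threshold (adjusted p = 0.113 and 0.362).

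These 3 genes, with LOC_Os03g48030 and LOC_Os03g54050, were the 5 members not called higher at the base in any of the 3 stressed treatments. LOC_Os03g48030 was nearly level in all of them, with log2 differences of -0.27 ± 0.14 in D40, 0.15 ± 0.14 in W40 and -0.06 ± 0.14 in D30 (edgeR adjusted p = 0.169, 0.438 and 0.812). It averaged 42.7 ± 27.15 CPM at the base and 45.3 ± 16.9 at the tip in D40, 25.3 ± 23.9 and 23.5 ± 20.01 in W40, and 99.0 ± 7.04 and 103 ± 6.86 in D30, against 69.0 ± 37.1 and 34.9 ± 23.8 in W30 (SD, n = 4 each). The D30 pools lay between 90.2 and 108 CPM at both ends of the blade. LOC_Os03g54050 falls outside the rule for named genes and is named only because it completes the 5.

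**Figure D4:**
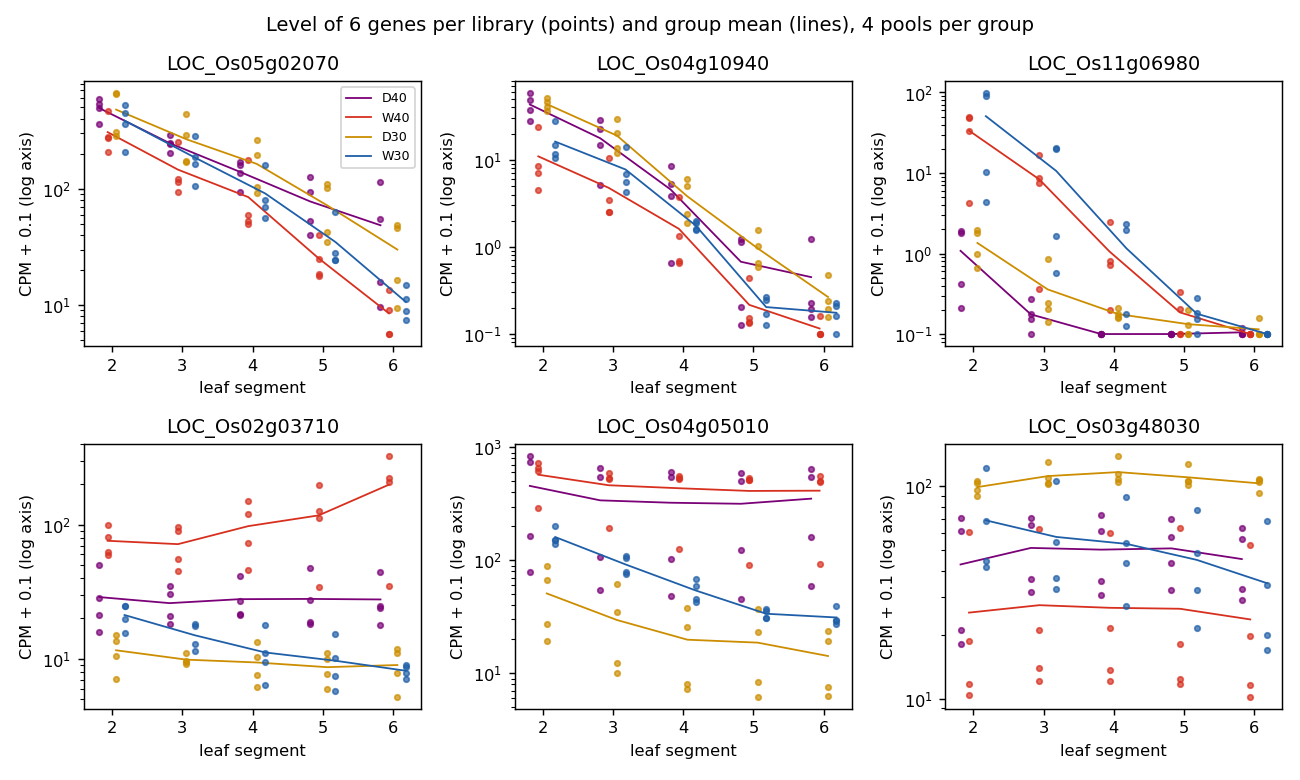
CPM plus 0.1 on a log axis against leaf segment for 6 members, with one point per library and lines through the group means of D40, W40, D30 and W30 (4 pools each, groups shifted sideways). LOC_Os05g02070 and LOC_Os04g10940 fall along the blade in all treatments, LOC_Os11g06980 is low in both drought groups, and LOC_Os02g03710 rises toward the tip in W40. The means of LOC_Os04g05010 are high in both heat-shocked groups, where the D40 pools split by batch. LOC_Os03g48030 is nearly level in D40, W40 and D30.

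At the base itself, heat shock in drought raised 20 members and lowered 33 (D40 against D30 in segment 2, edgeR with batch as a term, background 13.0% and 12.0% of all genes). Both shares of the members, 10.0% and 16.5%, lie near the background, and the median was -0.15. Same-numbered pools of D40 and D30, which share a batch, deviated together. With the number as a block 15 rose and 19 fell, and the share of all genes called in that fit is not given. Within batch 1, 41 rose and 14 fell (6.81% and 5.01% of all genes), and within batch 2, 28 rose and 85 fell (20.4% of all genes each way), so the balance of the directions was not the same in the batches. The count of lowered members was 10.0% without D40 pool 3 and 10.5% without D40 pool 4.

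LOC_Os11g09020 had 70.7, 88.4, 80.0 and 58.2 CPM in segment 2 of D40 and 25.2, 30.2, 38.2 and 35.8 CPM in D30, a log2 difference of 1.42 ± 0.16 (edgeR adjusted p = 5.76e-05). LOC_Os10g40600 went the other way, with 4.01, 6.69, 0.488 and 0.728 CPM in D40 and 13.3, 11.2, 8.17 and 7.88 CPM in D30, at -2.30 ± 0.41 (adjusted p = 0.00149). LOC_Os08g09110 had 6.53, 8.47, 1.88 and 1.36 CPM in D40 and 16.2, 13.1, 23.5 and 28.2 CPM in D30, at -2.14 ± 0.44 (adjusted p = 0.00332). In both genes every D40 pool lay below every D30 pool, and the D40 pools split by batch, with those of batch 2 the lower. LOC_Os11g10850 and LOC_Os06g36450 also fell, by 2.47 ± 0.34 and 2.61 ± 0.45 on the log2 scale (adjusted p = 0.000247 and 0.00125). LOC_Os02g03710, LOC_Os03g60850 and LOC_Os02g08170 rose by 1.49 ± 0.30, 1.65 ± 0.24 and 1.35 ± 0.21 (adjusted p = 0.00317, 0.000436 and 0.0006). Each of these calls held under all 16 omissions of 1 pool.

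Between the heat-shocked groups, 18 members were higher and 23 lower in D40 than in W40 at the base (edgeR, background 6.00% and 3.11% of all genes), with a median of -0.17. The lowered share, 11.5% of the members, was above its background and the raised share, 9.0%, was closer to it. Batch 1, with a single W40 pool, gave 0 calls each way, with 26 higher and 38 lower at an unadjusted p under 0.05, and batch 2 gave 47 and 78 (19.4% and 17.1% of all genes). The share of all genes at the unadjusted threshold is not given. The raised share of members fell to between 3.5% and 5.5% without any one of W40 pools 2, 3 and 4 or D40 pools 3 and 4. The lowered share was 6.5% without D40 pool 3, 6.0% without D40 pool 4, 7.0% without W40 pool 3 and 6.0% without W40 pool 4. Under every omission, 6 of the 18 and 10 of the 23 calls held.

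LOC_Os01g61044 and LOC_Os02g51930 were the firmest of the lowered genes. LOC_Os01g61044 had 9.18, 7.99, 6.07 and 4.17 CPM in segment 2 of D40, 29.3, 38.9, 45.8 and 53.3 in W40, 3.27, 4.47, 3.31 and 4.38 in D30, and 13.2, 11.6, 11.9 and 10.2 in W30. Every drought pool was below every well-watered pool, at both temperatures. The D40 level was lower than that of W40 by -2.74 ± 0.25 on the log2 scale (edgeR adjusted p = 0.000186). LOC_Os02g51930 had 0.823, 0.924, 1.20 and 0.513 CPM in D40, 4.92, 9.52, 9.65 and 8.07 in W40, 0.695, 0.415, 1.98 and 1.11 in D30, and 5.06, 3.78, 11.1 and 9.97 in W30, with a D40 minus W40 difference of -2.96 ± 0.34 (adjusted p = 0.000706). LOC_Os12g09300 followed the same order, at -2.16 ± 0.40 (adjusted p = 0.00713).

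LOC_Os11g06980 was low in both drought groups. In segment 2 it had 0.109, 1.69, 1.80 and 0.317 CPM in D40, 4.13, 32.8, 47.4 and 49.7 in W40, 0.884, 0.554, 1.71 and 1.87 in D30, and 4.25, 10.3, 89.9 and 98.2 in W30. The well-watered pools spread widely, mostly by batch, yet none of them overlapped a drought pool. D40 was below W40 by -4.14 ± 0.89 on the log2 scale (edgeR adjusted p = 0.0135), a call that ended without D40 pool 3, and the difference ran from -5.3 to -3.48 over the omissions. In segment 6 the 4 W40 libraries listed 0 counts. Set against 3 counts over the group, the W40 base was at least 3250-fold higher than the W40 tip.

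The raised genes included LOC_Os01g62980 and LOC_Os11g42500. LOC_Os01g62980 had 53.8, 63.1, 114 and 130 CPM in segment 2 of D40, 19.2, 7.38, 3.79 and 5.71 in W40, 64.7, 86.0, 53.9 and 81.0 in D30, and 56.8, 25.2, 5.86 and 7.64 in W30. All D40 pools were above all W40 pools, and W30 overlapped D30 through its first pool. The D40 minus W40 difference was 3.48 ± 0.61 (edgeR adjusted p = 0.00597). LOC_Os11g42500 had 16.3, 23.0, 11.9 and 10.2 CPM in D40 and 1.13, 0.859, 0.678 and 1.54 CPM in W40, at 3.61 ± 0.64 (adjusted p = 0.00612). Both calls held under all omissions.

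Over the 200 members, the fitted D40 minus W40 and D30 minus W30 changes at the base had a Pearson correlation across genes of 0.685 (Spearman 0.715), against 0.645 (0.518) over all 21974 genes tested. The D30 and W30 libraries are not those of D40 and W40, but the fit shares its batch term, and genes are not independent replicates. Of the 18 members raised in D40 against W40, 17 were also higher in D30 than in W30 by sign, and of the 23 lowered, 22 were also lower. For heat shock, D40 minus D30 and W40 minus W30 had a correlation of 0.437 (0.521) over the members and 0.689 (0.681) over all genes. Here 15 of the 20 raised in D40 were also higher in W40 than in W30, and 30 of the 33 lowered were also lower. The median W40 minus W30 change at the base was -0.51 and the median D30 minus W30 change -0.38. By the same edgeR rule 12 members were higher and 58 lower in W40 than in W30 (background 14.9% and 16.9%), and 6 were higher and 35 lower in D30 than in W30 (background 2.70% and 2.76%). W30 segment 2 chose the genes for a high level there, which favoured lower values in the other groups in advance. Nothing is therefore read from these values, from the counts by sign or from the correlations over the members.

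**Figure D5:**
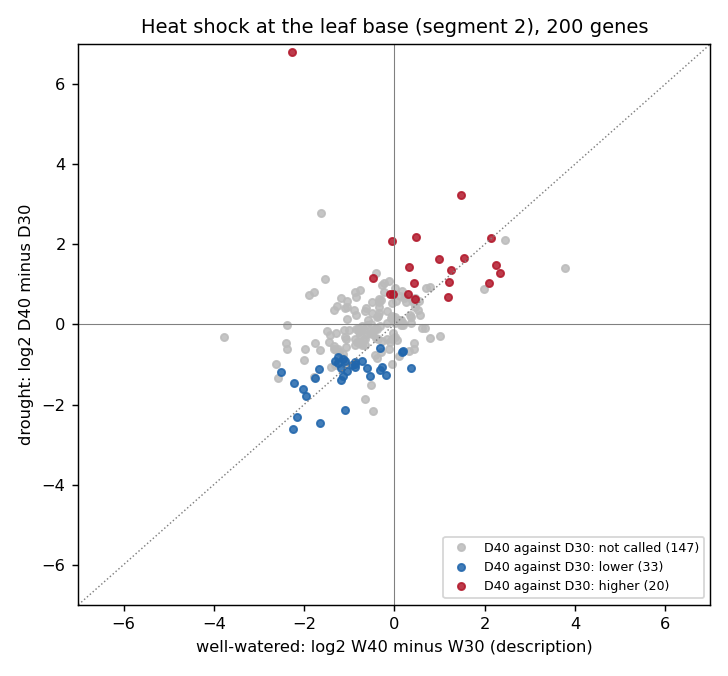
Fitted log2 heat shock change in segment 2 of the 200 members, in drought (D40 minus D30, y axis) against well-watered leaves (W40 minus W30, x axis, a description since W30 chose the genes). Red points were called higher in D40 than in D30 (20), blue points lower (33), and the dotted line marks equal change. Most blue points lie left of 0 on the x axis as well (30 of 33), and 15 of the 20 red points lie right of it; the red point at the top left is LOC_Os05g11210, with 0 counts in all D30 base libraries.

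At the tip, 191 members passed the filter on low counts and 9 did not, because their segment 6 counts were too low. D40 exceeded D30 for 12 of them and was lower for 21 (edgeR, background 14.5% and 13.6%), with a median of -0.09. Within batch 1 the counts were 19 and 34 (10.6% and 10.4% of all genes), and within batch 2 they were 26 and 31 (19.3% and 18.3%). D40 exceeded W40 for 29 and was lower for 15 (background 7.05% and 5.87%), with a median of 0.31. The number called higher changed with single pools. The share of members called higher, 14.5% with all pools, was 4.0% without D40 pool 4 and 7.5% without D40 pool 3. It was 6.0% without W40 pool 2, 6.5% without W40 pool 3, 5.0% without W40 pool 4 and 28% without W40 pool 1. The share of all genes called under each omission is not given, so these changes may not be special to the members. The lowered share was 1.5% without D40 pool 3 or D40 pool 4, against 7.5%. Under all omissions 8 of the 29 and 2 of the 15 calls held. Within batch 1, 1 member was higher and 4 lower in D40 than in W40, and within batch 2, 75 were higher and 22 lower (0.102% and 0.43% of all genes in batch 1, 20.7% and 18.5% in batch 2).

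Within a treatment, both batch 2 pools lay above both batch 1 pools at the base for 53 members in D40, 115 in D30 and 49 in W30, against 24.6%, 40.0% and 22.5% of all eligible genes. They lay below them for 108 in D40, 52 in D30 and 96 in W30, against 54.3%, 23.8% and 50.7%. The summed share of the members in segment 2 of D30 was 0.439% in batch 1 and 0.683% in batch 2, a gap wider than that between the means of D30 and W30.

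The lists of leaf genes set beside the members were entered by hand from general knowledge, and no table used here checks which locus they name. They are given as counts, with summed levels for some lists. Of 9 loci entered as expansins, wall-loosening proteins of growing cells, 1 was a member. None of the loci entered as cell division genes, meristem homeobox genes, cellulose synthases, BLADE-ON-PETIOLE regulators or phenylpropanoid and lignin enzymes was one. Nor was any of the 4 loci found, of 5 entered, for Rubisco small subunits and Rubisco activase, here called Rubisco loci. Many of these loci could not be members, because they missed the CPM minimum of the rule. Eligible were 3 of 9 expansins, 2 of 6 cell division, 0 of 3 meristem homeobox and 0 of 3 secondary wall loci. So were 5 of 5 primary wall, 1 of 3 BLADE-ON-PETIOLE, 8 of 9 phenylpropanoid and lignin, and 4 of 4 Rubisco loci. With 200 members among 15628 eligible genes, lists this short would mostly hold 0 by chance, so nothing is read from these member counts. All 3 meristem homeobox loci and 4 of 6 cell division loci stayed below 1 CPM in all 80 libraries. Of the 5 loci entered as primary wall cellulose synthases, 4 were called higher at the base in D40, 2 in W40 and 5 in D30. In the same order the counts were 3, 1 and 0 of 3 secondary wall loci and 4, 5 and 6 of 9 expansins. They were 1, 2 and 1 of 6 cell division loci and 1, 0 and 0 of 3 BLADE-ON-PETIOLE loci. For phenylpropanoid and lignin they were 3, 0 and 3 of 9, for Rubisco 0, 1 and 0 of 4, and for meristem homeobox 0 of 3 throughout. The shares of all tested genes were 10.6%, 16.9% and 8.38%. The 9 phenylpropanoid and lignin loci summed to between 131 and 1260 CPM at the D40 base and between 79.9 and 140 CPM at the W40 base. The base sums ran from 374 to 1210 CPM in D30 and from 111 to 163 CPM in W30. At the tip they ran from 111 to 662 CPM in D40, 100 to 302 in W40, 220 to 637 in D30 and 75.3 to 192 in W30. The Rubisco loci, of the carbon-fixing enzyme of green leaf and its activase, summed to between 10700 and 35600 CPM in segment 2 of D40. In segment 2 of W30 they summed to between 28300 and 50600 CPM. In segment 2 the Rubisco sums ran from 27400 to 33500 CPM in W40 and from 24600 to 31000 CPM in D30. Their tip sums ran from 13300 to 29500 CPM in D40, 25700 to 31800 in W40, 25000 to 28900 in D30 and 29000 to 41400 in W30.

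The members were spread over all 12 chromosomes, with 28 on chromosome 3, 24 on chromosome 4 and 4 on chromosome 9. These are 1.29%, 1.81% and 0.474% of the eligible genes of those chromosomes. The highest share was 1.82%, on chromosomes 6 and 11. By locus number, 10 members in 5 pairs had another member within 30 numbers, 5.0% of the members, against 2.44% of the 15422 other eligible genes with a member that near. Besides the pairs on chromosomes 3 and 4 already described, one pair was LOC_Os02g01210 and LOC_Os02g01220. LOC_Os02g01210 fell toward the tip by 2.58 ± 0.26 in D40, 2.35 ± 0.26 in W40 and 2.85 ± 0.25 in D30 on the log2 scale (edgeR adjusted p = 6.46e-11, 2.59e-10 and 1.85e-12), and LOC_Os02g01220 by 1.53 ± 0.19, 2.42 ± 0.20 and 1.35 ± 0.19 (adjusted p = 1.56e-08, 3.02e-14 and 3.15e-07). Both members of the pair kept their gradient in every treatment. The length implied by the deposited counts and FPKM had a median of 2985 bases over the members and 3558 bases over the eligible genes.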

How the data were processed

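RNA of 80 libraries (16 leaf pools by 5 segments) was analysed. Per the file headers, 3 tables came from the authors: raw counts per gene, counts after batch correction (estimated counts, not whole), and FPKM after batch correction. Tools listed in the submitters' processing notes are Picard 3.1.0, featureCounts 2.0.6 and HISAT2 2.2.1. Build, annotation and the method of batch correction are not given in the sources used here. Of raw counts from 1 to 20, 76.9% were even, so they may hold both reads of a pair. How reads shared between genes were counted is not stated.

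CPM used library totals. Raw counts were tested in edgeR 4.0.16 (R 4.3.3; TMM, filterByExpr, quasi-likelihood F tests, Benjamini-Hochberg over all genes tested, adjusted p under 0.05). Gradients were fitted to all 80 libraries with leaf pool as a block and segment by treatment, without a batch by segment term. Comparisons within a segment were fitted to its 16 libraries with treatment and batch. Standard errors are the log2 change over the square root of F. Contrasts that use W30 segments 2 or 6 are descriptions. Alternatives were DESeq2 1.42.0, other scaling (RLE), no filter, rounded batch-corrected counts, each batch, the replicate block, each pool left out (with the dispersion trend of all pools), another pseudocount and the first 100 members. In simulated counts for the D40 gradient, 93% of 2-fold and 61% of 1.5-fold changes were recovered with 8 false calls. The simulated counts held no pool or batch effects and took their spread from the dispersion trend alone, so recovery in the real libraries may differ. For the gradient difference of D40 and W40, 74% and 25% were recovered, and for that of D40 and D30, 72% and 28%.

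Replicates are pools of leaves, and nothing states that they came from separate sowings. For comparisons within a segment, p-values measure the spread between pools. For gradients, the block removes each pool's own level, and p-values measure the spread that is left among its segments. Segments of a pool count there as independent once the block is fitted. Segments of a pool are paired per the labels' protocols (correlation of deviations in segments 2 and 6, 0.56 to 0.89). Same-numbered D40 and D30 pools deviated together (0.48 to 0.68), but they also share a batch. In segment 2, D40 pools 2 and 4 deviated more with another D30 pool than with that of their own number. So did D40 pools 2 and 3 in segment 6. Pairs and a shared batch cannot be told apart there, so the number was a block in an alternative fit only. Named genes were the 10 first in the ranking, the 6 highest in FPKM, up to 4 per contrast and direction with the largest called change and no overlap, the 4 lowest gradients per treatment, the extremes of the share kept in segment 3, neighbouring pairs, and the genes beside the cut. The members, lists and rules were chosen with earlier results of these data known. The RefSeq table used here lists 0 of the member IDs, and no name or sequence is shown.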

Additional observations from a re-analysis of the deposited data

Results flagged for a closer look

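In W30 pool 1 the 200 members took 0.492% of the counts of segment 4, and the other 3 W30 pools had 0.333% to 0.348% there. The test for a single outlying library covered 60 groups of 4, namely the summed share in each treatment and segment and the segment 2 CPM of the first 10 members. This was the 1 value past its limit, the tip share of D40 pool 4 was not, and chance alone marks about 1 group in 20. The test of a difference between treatments called a larger base-to-tip difference in D40 than in D30 for 2 members and a smaller one for 1. The same test called a larger difference in D40 than in W40 for 5 members and a smaller one for 36.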

How the results depend on the processing

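Values here are percentages of the 200 members called. The matching shares of all genes are given above for most counts within batches, and not for the other alternatives. Changes special to the members are therefore not separated here from changes over all genes. Omitting each pool in turn gave 76.5% to 90.5% higher at the base in D40 (lower 0.0% to 0.5%), 89.5% to 94.5% in W40 (lower 0.5% to 2.5%) and 78.0% to 89.0% in D30 (lower 0.0% to 0.5%). For the gradient difference the ranges were 0.5% to 3.5% larger and 0.5% smaller in D40 than in D30, and 1.0% to 4.5% larger and 8.0% to 31.0% smaller in D40 than in W40. In segment 2 D40 was higher than D30 in 8.5% to 11.5% and lower in 10.0% to 20%, and higher than W40 in 3.5% to 13.0% and lower in 6.0% to 15.0%. In segment 6 D40 was higher than D30 in 4.0% to 6.5% and lower in 7.5% to 14.0%, and higher than W40 in 4.0% to 28% and lower in 1.5% to 8.0%. That last share was 3.5% to 4.5% without any of D40 pool 2, W40 pools 2, 3 and 4, and D30 pools 1 and 4.

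In batch 1 alone 0.0% were lower at the base in W40 and 0.5% in D30. The gradient was larger in D40 than in D30 for 11.5%, larger than in W40 for 7.5% and smaller for 2.5%. In segment 2 D40 was higher than D30 in 20.5% and lower in 7.0%, and 0.0% differed from W40 either way. In segment 6 it was higher than D30 in 9.5% and lower in 17.0%, and higher than W40 in 0.5% and lower in 2.0%. In batch 2 alone 1.0% were lower at the base in D40, 2.5% in W40 and 1.0% in D30. There the gradient was larger in D40 than in D30 for 0.0% and smaller for 1.0%, and smaller than in W40 for 40.5%. In segment 2 D40 was lower than D30 in 42.5%, higher than W40 in 23.5% and lower in 39.0%. In segment 6 it was higher than D30 in 13.0% and than W40 in 37.5%.

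Without the replicate block of leaf pools, 58.5% were higher at the base in D40, 78.5% in W40 and 54.0% in D30, 0.5% were lower in W40, and 0.0% differed in gradient between D40 and D30 or W40 in either direction. At an unadjusted edgeR p under 0.05 that fit gave 6 larger and 4 smaller against D30, and 5 and 33 against W40. With the replicate block in segment 2, D40 was higher than D30 in 7.5% and lower in 9.5%, and higher than W40 in 3.0% and lower in 5.5%. In segment 6 the block gave 4.0% and 8.0% against D30, and 5.0% and 3.0% against W40. Same-numbered D40 and W40 pools 1, 3 and 4 share a batch and pool 2 does not. Their deviations in segment 2 correlated at 0.66, 0.4 and 0.66 for pools 1, 3 and 4 and at -0.61 for pool 2, so the numbers were not taken as pairs.

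DESeq2 called the gradient larger in D40 than in D30 for 2.0%, and D40 higher than W40 in segment 2 for 17.5% and lower for 19.0%. Batch-corrected counts gave 0.5% lower at the base in W40 and 0.5% in D30, and a gradient larger in D40 than in W40 for 1.0% and smaller for 11.5%. Choosing members with a pseudocount of 1 kept 184 of 200, with 0.5% lower at the base in D40 and 0.5% in W40. Among the first 100 members 0.0% were lower in W40, and 1.0% had a smaller gradient in D40 than in D30. The cause of these shifts was not tested. For 54 tests of named genes, 1143 of 1242 alternatives kept direction and side of the threshold, 99 kept direction only, and 0 reversed. Values of a few hundredths of a CPM rest on 1 to 3 counts or little more.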
